A study of Mus musculus with 6 samples.

Results

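The carbonic anhydrase genes *Car2*, *Car3*, *Car4*, *Car5b*, *Car8*, *Car13* and *Car14* were followed in RNAseq of whole hearts from 3 female NBCe1-B/C KO mice and 3 female WT mice, each between 4 and 5 weeks of age. The KO mice lack the B and C variants of NBCe1, the sodium-bicarbonate cotransporter encoded by *Slc4a4*, in all tissues, and they die early. Both genotypes came from heterozygous parents on a C57BL/6J background, and no drug or other treatment is named in the labels. The genes were chosen by name, and 7 of 7 were found among the 16018 genes of the deposited table. The values are reads per gene after division by 1 factor for each library, called normalized counts below.

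Carbonic anhydrases are zinc enzymes that convert CO2 and water into bicarbonate and a proton, and back. Where an enzyme sits decides which pool it serves: GPI-anchored CA IV and membrane-spanning CA XIV face the outside of the cell, CA II, CA III and CA XIII are cytosolic, and CA VB is mitochondrial. CA VIII has lost its catalytic activity and binds the type 1 IP3 receptor. Bicarbonate transporters of the Slc4 family, NBCe1 among them, carry the ion that these enzymes make or use, so the comparison addresses whether transcripts for the enzymes differ in hearts without the transporter variants.

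Sequenced reads assigned to genes ranged from 41364857 to 49100802 per library. *Slc4a4*, the targeted gene, was at 264, 945 and 269 normalized counts in KO replicates 1, 2 and 3 and at 675, 822 and 789 in the WT hearts in the same order. For the targeted gene, the library labelled KO replicate 2 was therefore above every WT library, against its label, and the genotype difference of each of the 7 members is also given without it. KO replicate 1 stood apart in another way, with a mean log2 level of 5.74 over 11 adipocyte markers against 8.24 to 9.64 in the other libraries. Atrial markers were low in KO replicate 1 and WT replicate 1, where 6 genes summed to 17314 and 26923 normalized counts against 77421 to 116419 in the other libraries. Heart muscle markers were present in every library. Their mean log2 level over the 12 genes of that list was 17.62 to 17.64 in KO and 17.30 to 17.52 in WT hearts. The groups did not overlap for 8 of the 12 genes, 6 higher and 2 lower in KO, against 30.2% of all genes.

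None of the carbonic anhydrase genes differed between genotypes beyond the spread between hearts. Of the 7 genes, 0 passed an adjusted p of 0.05 by limma, against 0 of 16016 genes tested (0%), and 0 passed by edgeR on the recovered reads, also against 0% of all genes. DESeq2 on the same reads called 0 of the 5 members to which it gave an adjusted p, against 13.2% of the 11981 genes with one; *Car5b* and *Car13* received none. At an unadjusted limma p under 0.05, 0 of 7 members passed, against 23.5% of all genes. KO and WT libraries overlapped for 7 of 7 members, whereas 30.2% of all genes had groups that did not overlap. The median log2 fold change was -0.09 over the members and -0.0043 over all genes tested, and the median size of the change was 0.09 and 0.17, respectively. *Car14* had the one fitted value above 0, and the other 6 were below it. These tests set the difference between genotypes against the spread between 3 hearts a group, with the variance of each gene informed by that of other genes.

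**Figure D1:**
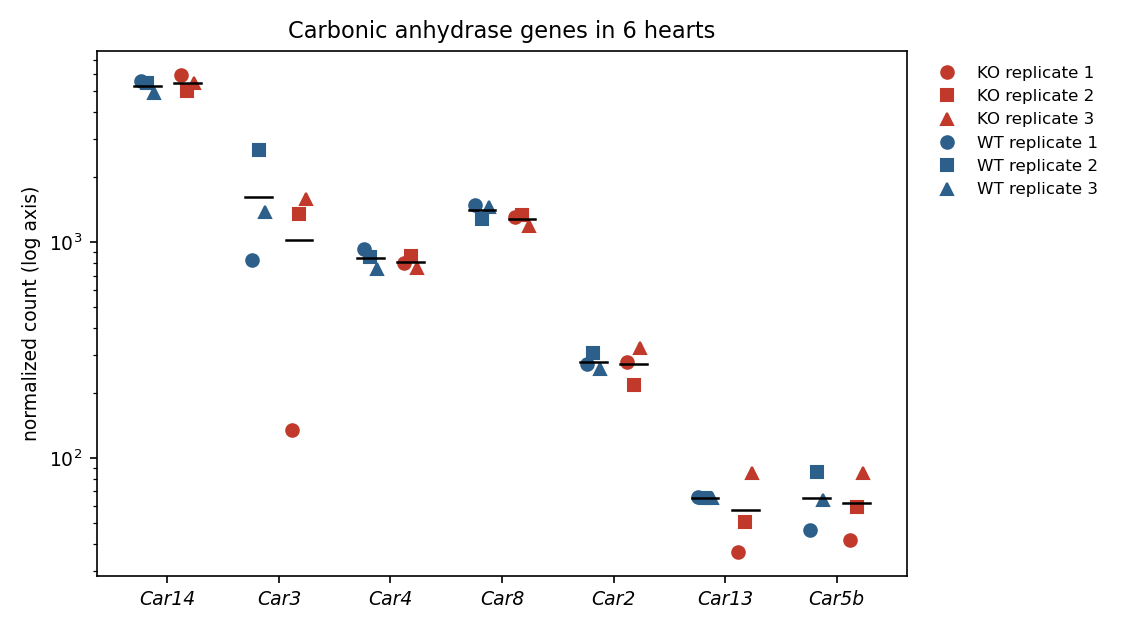
Normalized counts (log axis) of the 7 carbonic anhydrase genes in each heart, with WT libraries in blue at the left and KO libraries in red at the right of each gene, and a black line at each group mean. The groups overlap for every gene, and *Car3* in KO replicate 1, at 135 normalized counts, lies far below its other values.

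*Car14* encodes the membrane-spanning enzyme of the heart muscle surface and lies on chromosome 3 from 95897768 to 95904691 on the minus strand (GRCm38, GENCODE M21). It was at 5971, 5019.9 and 5475 normalized counts in KO replicates 1, 2 and 3 and at 5580.0, 5465 and 4900.0 in WT replicates 1, 2 and 3. The highest value was in a KO heart and the lowest in a WT heart, and the ranges overlapped. The KO mean was 5488 ± 475 and the WT mean 5315 ± 364 (SD, n = 3 each), a log2 fold change of 0.05 (95% interval -0.14 to 0.23; limma with Benjamini-Hochberg adjustment, adjusted p = 0.784). Without the library labelled KO replicate 2 it was 0.11. Skeletal muscle markers, highest in that library, had a Pearson r of -0.89 with *Car14* over the 6 hearts (exact permutation p = 0.0194, adjusted 0.318; rho -0.77, exact permutation p = 0.103, adjusted 0.450) and -0.90 without KO replicates 1 and 2, and their part in its level was not tested. *Car14* was the steadiest of the 7 genes, its highest library only 1.22 times its lowest, and counting error was at most 1.45% of the count. The last 521 bases of its span, chr3:95897768-95898288, are shared with *Aph1a*, a gamma-secretase subunit gene on the opposite strand, and 19.1% of the 150-base stretches of the *Car14* transcripts also lie in that gene's exons. Whether counting used strand is not stated, so reads from those bases cannot be told apart. *Aph1a* itself was at 2191 to 2598 normalized counts in KO and 2297 to 2743 in WT hearts.

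*Car4*, the GPI-anchored enzyme known from capillary endothelium and the cardiac cell surface, lies on chromosome 11 from 84957786 to 84966044 on the plus strand. It was at 803, 865 and 757 normalized counts in KO replicates 1, 2 and 3 and at 933, 849 and 751 in WT replicates 1, 2 and 3. WT hearts held both the highest and the lowest value, so the KO range lay inside the WT range. Means were 809 ± 54.2 in KO and 844 ± 91.4 in WT hearts (SD, n = 3 each), a log2 fold change of -0.06 (95% interval -0.29 to 0.17; limma, adjusted p = 0.761), and -0.11 without the library labelled KO replicate 2. Capillary endothelial markers, 14 of 14 present, summed to 79587 to 89201 normalized counts in KO and 78197 to 79927 in WT hearts. Their mean log2 level had a Pearson r of 0.55 with *Car4* over the 6 hearts (exact permutation p = 0.263, adjusted 0.556) and a Spearman rho of 0.54 (exact permutation p = 0.297, adjusted 0.612).

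*Car2*, the fast cytosolic enzyme that is abundant in red cells, lies on chromosome 3 from 14886273 to 14900770 on the plus strand. It was at 278, 217 and 324 normalized counts in KO replicates 1, 2 and 3 and at 271, 307 and 259 in WT replicates 1, 2 and 3. The KO hearts held both extremes, with all WT hearts between them. The KO mean was 273 ± 53.5 and the WT mean 279 ± 24.8 (SD, n = 3 each), a log2 fold change of -0.05 (95% interval -0.40 to 0.31; limma, adjusted p = 0.890). The sign was not stable. Without the library labelled KO replicate 2, the lowest of the 6, the value was 0.11. It was 0.0228 without WT replicate 2 and 0.0565 after length and GC correction. Erythroid markers, 11 of 13 present, were unequal between hearts and summed to 31160 to 135857 normalized counts in KO and 53892 to 119134 in WT hearts, highest in KO replicate 3 and WT replicate 2, which also had the most *Car2* of their groups. The most abundant of these markers, the beta-globin gene *Hbb-bs* and the alpha-globin gene *Hba-a1*, were at 65932 and 43449 normalized counts in KO replicate 3. Over the 6 hearts the mean log2 marker level had a Pearson r of 0.82 with *Car2* (exact permutation p = 0.0458, adjusted 0.318 over 70 relations) and a Spearman rho of 0.77 (exact permutation p = 0.103, adjusted 0.450). The r fell to 0.38 without those 2 hearts, so the relation rests on them. Skeletal muscle markers had an r of -0.79 with *Car2* (exact permutation p = 0.0639, adjusted 0.373), and -0.88 without KO replicates 1 and 2. Their Spearman rho was -0.83 (exact permutation p = 0.0583, adjusted 0.450). The parts of blood and skeletal muscle in the *Car2* level were not tested.

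*Car3*, the slow cytosolic enzyme known from slow skeletal muscle and fat, lies 13.7 kb before *Car2*, on chromosome 3 from 14863512 to 14872523 on the plus strand. It was at 135, 1352 and 1582 normalized counts in KO replicates 1, 2 and 3 and at 827, 2668 and 1383 in WT replicates 1, 2 and 3. The highest heart was 19.8 times the lowest, a spread on the log2 scale larger than that of 99.7% of the genes tested, while *Car2* next to it differed 1.49-fold between its highest and lowest hearts. The 2 remaining KO hearts lay within the WT range, and KO replicate 1 alone lay below it. The KO mean was 1023 ± 778 and the WT mean 1626 ± 945 (SD, n = 3 each), a log2 fold change of -1.13 with a standard error of 0.85 (95% interval -3.06 to 0.80; limma, adjusted p = 0.458). Without the library labelled KO replicate 2 it was -1.65, and without KO replicate 1 it was 0.01. Count models on the recovered reads gave -0.66 (edgeR) and -0.67 (DESeq2). The exact two-sided permutation test of the means gave p = 0.5 with n = 3 a group, where the smallest p that this design allows is 0.1.

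*Car3* moved from heart to heart with markers of fat, as was noticed after its values were seen. Of 12 adipocyte markers, 11 were in the table, *Lep* was not, and 10 of the 11, all but *Lipe*, were lowest in KO replicate 1, the heart with the least *Car3*. The 2 most abundant of the list, the hormone-sensitive lipase gene *Lipe* and the lipid droplet gene *Cidea*, were at 2951 and 940 normalized counts there and at 2734 to 4117 and 1125 to 1911 in the others. Markers more restricted to fat differed far more. The adiponectin gene *Adipoq* was at 15.9, 248 and 569 in KO replicates 1, 2 and 3 and at 204, 532 and 285 in WT replicates 1, 2 and 3. The brown fat uncoupling protein gene *Ucp1* was at 17.9, 724 and 2948 in the KO and at 525, 1888 and 1097 in the WT hearts in the same order. Over the 6 hearts the mean log2 level of the list had a Pearson r of 0.98 with *Car3* (exact permutation p = 0.00417, adjusted 0.146) and a Spearman rho of 0.94 (exact permutation p = 0.0167, adjusted 0.450). None of the 70 relations computed between markers and members passed adjustment. With 6 hearts the smallest possible permutation p is too large for a single relation among 70 to pass, however close it is. The r was 0.997 without KO replicates 1 and 3, the hearts farthest from the median of the markers, and 8 of the 11 markers taken one by one had an r above 0.9. Between genotypes, limma called 0 of the 11 adipocyte markers, as it called 0% of all genes. Against 13.2% of all genes with an adjusted p, DESeq2 called 0 of these markers, 2 of which received none. Their direction depended on the scale: the median log2 fold change was -1.14 on the log scale of limma, where KO replicate 1 weighs most and 9 of 11 were below 0, and -0.05 by DESeq2, and 6 of 11 had the lower mean in KO. Skeletal muscle markers, 10 of 13 present, summed to 927, 4875 and 1439 normalized counts in KO replicates 1, 2 and 3 and to 1348, 1633 and 1925 in the WT hearts. Of the 10, 8 were also lowest in KO replicate 1, and their single r values with *Car3* ran from 0.25 to 0.63. Their mean log2 level had an r of 0.52 with *Car3* (exact permutation p = 0.290, adjusted 0.564) and a rho of 0.09. That r was -0.22 without KO replicates 1 and 2. Atrial markers moved with *Car3* as well (r = 0.76, exact permutation p = 0.0319, adjusted 0.318; rho 0.77, exact permutation p = 0.103, adjusted 0.450), with 5 of 6 lowest in KO replicate 1, and so did neuronal markers (r = 0.75, exact permutation p = 0.0403, adjusted 0.318; rho 0.66, exact permutation p = 0.175, adjusted 0.533). Those r values fell to 0.27 without KO replicate 1 and WT replicate 1 and to 0.26 without KO replicate 1 and WT replicate 2, so both relations rest on these hearts. In bulk tissue, fewer cells of a type and less RNA per cell cannot be told apart, and the parts of fat, atrium and nerve in the *Car3* level were not tested.

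**Figure D2:**
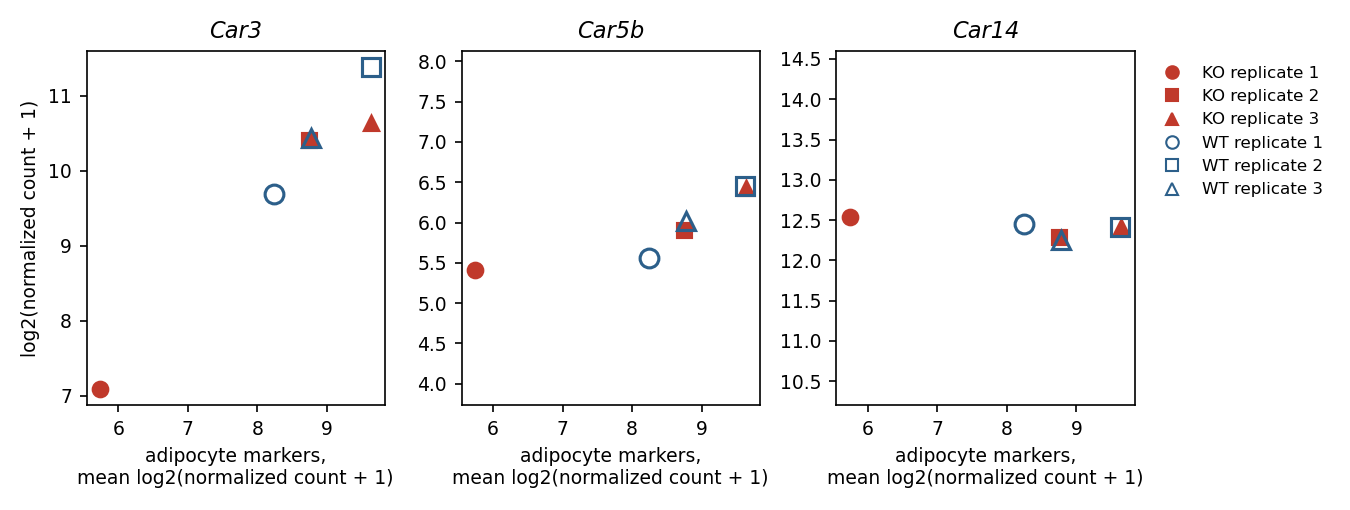
Level of *Car3*, *Car5b* and *Car14*, as log2(normalized count + 1), against the mean log2(normalized count + 1) of 11 adipocyte markers, with 1 point per heart, filled red for KO and open blue for WT; all 3 vertical axes span about the same number of log2 units. *Car3* and *Car5b* are lowest in KO replicate 1, where the markers are lowest, and *Car14* has its highest value there.

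*Car13*, the other cytosolic enzyme, lies 200.5 kb before *Car3*, on chromosome 3 from 14641727 to 14663002 on the plus strand. It was at 36.7, 50.7 and 85.1 normalized counts in KO replicates 1, 2 and 3 and at 65.6, 65.5 and 65.0 in WT replicates 1, 2 and 3. The 3 WT hearts were nearly equal, closer than the 12.7% counting error at this depth, and the KO hearts lay on both sides of them. Means were 57.5 ± 24.9 in KO and 65.3 ± 0.328 in WT hearts (SD, n = 3 each), a log2 fold change of -0.27 (95% interval -0.93 to 0.40; limma, adjusted p = 0.628). It was -0.22 without the library labelled KO replicate 2 and 0.0079 without KO replicate 1. The counts rest on 37 to 96 reads a library, with a counting error of 10.2% to 16.4%. Over the 6 hearts *Car13* had an r of 0.87 with adipocyte markers (exact permutation p = 0.025, adjusted 0.318; rho 0.66, exact permutation p = 0.175, adjusted 0.533), which fell to 0.12 without KO replicates 1 and 3. Its r was 0.81 with erythroid markers (exact permutation p = 0.0472, adjusted 0.318; rho 0.77, exact permutation p = 0.103, adjusted 0.450) and 0.83 without KO replicate 3 and WT replicate 2. With capillary endothelial markers it was -0.88 (exact permutation p = 0.025, adjusted 0.318; rho -0.77, exact permutation p = 0.103, adjusted 0.450) and -0.84 without KO replicates 1 and 3. The parts of these cell types in the *Car13* level were not tested.

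*Car5b*, the mitochondrial enzyme that supplies bicarbonate to biosynthetic carboxylases, lies on chromosome X from 163976822 to 164027997 on the minus strand. It was at 41.7, 58.9 and 85.1 normalized counts in KO replicates 1, 2 and 3 and at 46.1, 86.3 and 63.9 in WT replicates 1, 2 and 3. Each genotype held low and high hearts, and the 2 ranges almost coincided. On average it was at 61.9 ± 21.9 in KO and 65.4 ± 20.1 in WT hearts (SD, n = 3 each), a log2 fold change of -0.09 (95% interval -0.81 to 0.62; limma, adjusted p = 0.892), and the same without the library labelled KO replicate 2. The order of the hearts was close to that of the adipocyte markers, with a Pearson r of 0.87 (exact permutation p = 0.00278, adjusted 0.146), a Spearman rho of 0.94 (exact permutation p = 0.0167, adjusted 0.450) and an r of 0.988 without KO replicates 1 and 3. Erythroid markers had an r of 0.87 with it as well (exact permutation p = 0.0292, adjusted 0.318; rho 0.77, exact permutation p = 0.103, adjusted 0.450), which fell to 0.39 without KO replicate 3 and WT replicate 2. Atrial markers had an r of 0.83 with *Car5b* (exact permutation p = 0.05, adjusted 0.318; rho 0.77, exact permutation p = 0.103, adjusted 0.450), which fell to 0.21 without KO replicate 1 and WT replicate 1. The parts of these cell types in the *Car5b* level were not tested.

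*Car8*, which encodes the protein without catalytic activity, lies on chromosome 4 from 8143362 to 8239041 on the minus strand. It was at 1308, 1339.7 and 1183 normalized counts in KO replicates 1, 2 and 3 and at 1488, 1274 and 1457 in WT replicates 1, 2 and 3. The WT replicate 2 heart fell among the KO hearts, and the other 2 WT hearts were above all of them. The KO mean was 1277 ± 82.8 and the WT mean 1407 ± 116 (SD, n = 3 each), a log2 fold change of -0.14 with a standard error of 0.09 (95% interval -0.33 to 0.06; limma, adjusted p = 0.368, the lowest of the 7). It was -0.17 without the library labelled KO replicate 2, and it was below 0 in all 20 alternative settings. The exact two-sided permutation test of the means gave p = 0.3 with n = 3 a group.

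**Figure D3:**
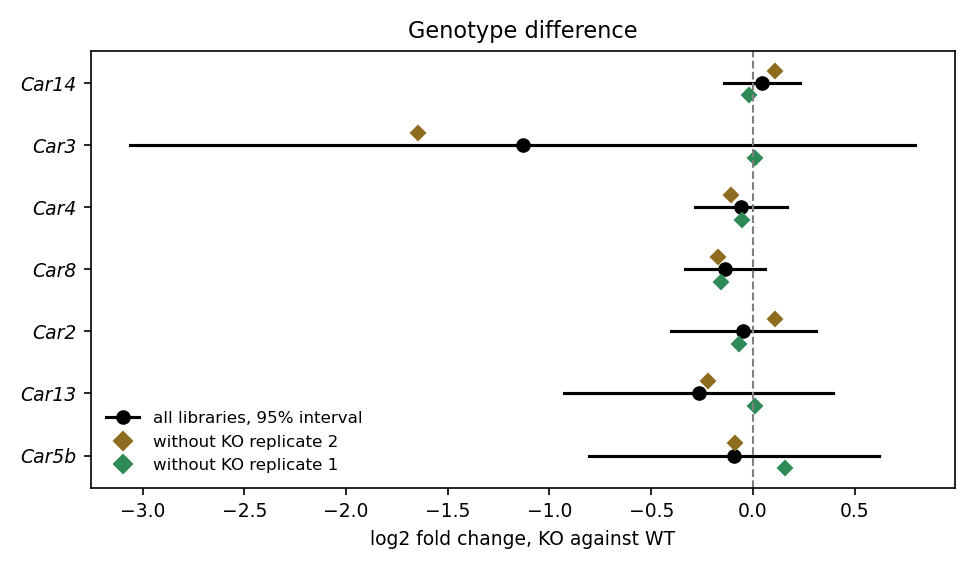
Log2 fold change of each gene, KO against WT, with its 95% interval from limma (black) and the values without KO replicate 2 (brown) and without KO replicate 1 (green). All 7 intervals span 0, and that of *Car3*, from -3.06 to 0.80, is the widest.

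Levels of different genes were compared per kilobase of the longest annotated transcript. *Car14* came first with 3161 ± 228 normalized counts per kilobase (SD over n = 6 hearts), followed by *Car3* with 789 ± 501, *Car4* with 658 ± 55.7, *Car8* with 348 ± 29.7, *Car2* with 154 ± 20.9, *Car13* with 26.7 ± 7.11 and *Car5b* with 18.5 ± 5.50. By this length, *Car14* RNA thus made up 53.1% to 73.8% of the summed per-kilobase level of the 7 genes in a heart. That includes any reads from the bases shared with *Aph1a*, and the share was not computed for other lengths. Neighbours in the order whose ranges over the hearts overlapped were *Car3* with *Car4*, where *Car3* was higher in 4 of 6 hearts, and *Car13* with *Car5b*, where *Car13* was higher in 6 of 6. The other neighbours did not overlap. *Car3* ranged from 80.4 to 1589 per kilobase, so that it took the fifth place in KO replicate 1, the third in WT replicate 1 and the second in the other hearts. Its share of the summed level ranged from 1.70% to 26.4%. Counted per kilobase of coding sequence, *Car8* stood above *Car4* in 6 of 6 hearts and the other 5 genes kept their places.

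**Figure D4:**
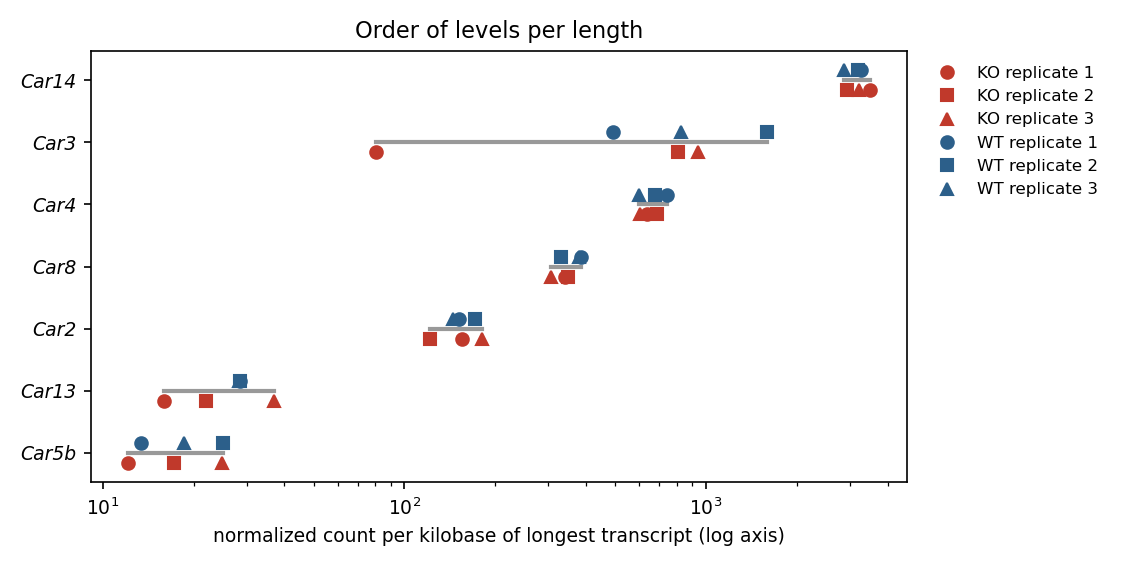
Normalized counts per kilobase of the longest transcript (log axis) for the 7 genes, ordered by their mean, with 1 point per heart (WT in blue above, KO in red below the line) and a grey line from the lowest to the highest heart. *Car14* lies above every other gene in each heart, and *Car3* spans 80.4 to 1589.

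The promoters of *Car14*, the highest of these genes per length, and of *Car5b*, the lowest, are shown with that of *Car4*, because sequences for these 3 of the 7 genes were at hand; they are from RefSeq (GRCm38.p6). Each is the 250 bases before the start site, written 5′ to 3′ on the gene's strand, with capitals at matches to the motifs searched.
Car14: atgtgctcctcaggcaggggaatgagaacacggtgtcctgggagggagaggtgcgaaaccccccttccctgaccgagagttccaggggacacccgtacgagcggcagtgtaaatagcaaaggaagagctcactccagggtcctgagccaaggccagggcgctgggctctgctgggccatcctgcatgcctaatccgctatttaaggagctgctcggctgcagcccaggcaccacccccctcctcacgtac
Car4: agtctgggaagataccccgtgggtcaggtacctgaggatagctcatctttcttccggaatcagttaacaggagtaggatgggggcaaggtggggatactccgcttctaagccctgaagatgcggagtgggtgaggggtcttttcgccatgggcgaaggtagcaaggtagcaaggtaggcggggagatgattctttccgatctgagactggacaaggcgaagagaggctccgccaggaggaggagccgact
Car5b: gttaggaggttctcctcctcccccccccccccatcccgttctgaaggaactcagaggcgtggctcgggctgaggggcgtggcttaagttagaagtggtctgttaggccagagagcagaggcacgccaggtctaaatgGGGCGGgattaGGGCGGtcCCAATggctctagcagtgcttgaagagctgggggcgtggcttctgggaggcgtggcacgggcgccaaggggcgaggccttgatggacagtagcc
The windows are chr3:95904686-95904935 for *Car14* (minus strand), chr11:84957504-84957753 for *Car4* (plus strand) and chrX:164028011-164028260 for *Car5b* (minus strand). The motifs searched on both strands were the TATA box TATAAA, the CCAAT box, the Sp1 core GGGCGG, the GATA factor motif AGATAA, the E-box CANNTG, the nuclear receptor motif AGGTCA and the MEF2 motif, and no match overlapped another. The *Car5b* window held the Sp1 core at positions -113 and -102 and a CCAAT box at -94, counted to the first base of the motif from the start site. Of 32851 promoter windows of this length, 32.7% held the Sp1 core and 33.8% held a CCAAT box. The windows of *Car14* and *Car4* held none of the motifs, the shares of all windows being 12.4% for the TATA box, 9.99% for the GATA motif, 66.2% for the E-box, 14.0% for the nuclear receptor motif and 2.92% for MEF2. All 3 were richer in G and C than the median window (62%, 56.4% and 63.6% against 52.4%) and held 10, 11 and 12 CpG pairs against a median of 6.

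None of the other carbonic anhydrase genes was called. Of 9 listed, *Car7*, *Car9*, *Car11* and *Car15* were in the table. *Car7*, a cytosolic enzyme, was at 223, 258 and 228 normalized counts in KO and at 295, 271 and 245 in WT hearts, a log2 fold change of -0.19 (limma, adjusted p = 0.371; -0.26 without the library labelled KO replicate 2), and its groups overlapped, as did those of the other 3. The hypoxia-responsive *Car9* was at 20.8 to 29.9 and *Car15* at 13.3 to 23.8 over the 6 hearts. *Car1*, the red cell enzyme, had no row, nor had *Car5a*, *Car6*, *Car10* and *Car12*.

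Genes of the wider bicarbonate and acid handling system were taken from 7 lists with 62 genes, 48 of them in the table. Of these, limma and edgeR called 0 and DESeq2 called 6, 5 higher and 1 lower in KO, which was 14.6% of those with an adjusted p, close to the 13.2% of all genes, of which 985 were higher and 602 lower. KO and WT hearts did not overlap for 10 of 48 (20.8%), 9 of them higher in KO, against 30.2% of all genes. The listed genes were thus called about as often as other genes by DESeq2, and their values are given as a description. *Itpr1*, the IP3 receptor that binds the *Car8* product, was at 3017, 2505 and 2706 normalized counts in KO replicates 1, 2 and 3 and at 1844, 2043 and 2322 in WT replicates 1, 2 and 3. Every KO heart was above every WT heart, and the log2 fold change was 0.41 (SE 0.10; limma, adjusted p = 0.0844; edgeR, adjusted p = 0.0822; DESeq2, adjusted p = 0.00636). The other IP3 receptor genes, *Itpr2* and *Itpr3*, also had every KO heart above every WT heart, with log2 fold changes of 0.24 and 0.32. DESeq2 called neither (adjusted p = 0.121 and 0.07). Among enzymes that use bicarbonate, the acetyl-CoA carboxylase gene *Acacb* had a log2 fold change of 0.34 and the propionyl-CoA carboxylase gene *Pcca* of 0.28, called by DESeq2 (adjusted p = 0.0174 and 0.0163) and not by limma (adjusted p = 0.108 and 0.0861). The pyruvate carboxylase gene *Pcx* had 0.35 with overlapping groups (limma, adjusted p = 0.332).

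Among transporters, *Slc4a7*, which encodes the electroneutral cotransporter NBCn1, had a log2 fold change of 0.38 (limma, adjusted p = 0.136; DESeq2, adjusted p = 0.0492). By quantitative PCR on female hearts, the paper found no significant change in this transcript. Corrected for length and GC content, the *Slc4a7* value was 0.19 (limma, adjusted p = 0.46). Without that correction, *Chp1*, a cofactor of sodium-proton exchangers, had a log2 fold change of 0.23 (limma, adjusted p = 0.115; DESeq2, adjusted p = 0.0480). The mitochondrial pyruvate carrier gene *Mpc2* was the one that DESeq2 called lower, by a log2 fold change of -0.22 (limma, adjusted p = 0.115; DESeq2, adjusted p = 0.0445). *Aqp1*, a water channel that also passes CO2, had 0.16 with overlapping groups (limma, adjusted p = 0.386). Fold changes over all genes rose with transcript length (Spearman rho 0.45 across genes, which are not independent replicates). Once length and GC content were corrected for, the values were 0.16 for *Itpr1*, -0.03 for *Itpr2*, 0.12 for *Itpr3*, 0.19 for *Slc4a7* and 0.14 for *Acacb*, all smaller than before. *Pcca* had 0.33, *Chp1* 0.27, *Mpc2* -0.24 and *Pcx* 0.33. Without the library labelled KO replicate 2, the uncorrected values were 0.47 for *Itpr1*, 0.49 for *Slc4a7*, 0.30 for *Acacb*, 0.32 for *Pcca*, 0.30 for *Chp1*, -0.17 for *Mpc2*, 0.44 for *Pcx* and 0.22 for *Aqp1*. Among the carbonic anhydrase genes that correction gave 0.16 for *Car14*, 0.09 for *Car4* and 0.06 for *Car2*, the last 2 having been below 0 without it, and it left *Car8* at -0.14.

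For each member the 2 genes whose log2 levels followed it most closely over the 6 hearts were sought among 16015 others, as a description. *Car3* was followed by *Arxes1* (Pearson r = 0.993) and *Gm42715* (0.992), and 266 genes had an r above 0.9 with it, more than for any other member. *Arxes1*, a gene known from adipocytes, was at 7.94, 23.8 and 24.8 normalized counts in KO replicates 1, 2 and 3 and at 21.5, 32.2 and 24.7 in WT replicates 1, 2 and 3. *Car14* was followed by *Rbpms2* (0.996), an RNA-binding protein gene of heart muscle, and *Exd1* (0.993), *Car4* by *Micall1* (0.989) and *Mgll* (0.984), and *Car8* by *Dnah2* (0.992) and *Gm15635* (0.982). *Car2* was followed by *Bscl2* (0.977) and *Smco2* (0.973), *Car5b* by *Kat8* (0.990) and *Camk4* (0.983), and *Car13* by *Gm13509* (0.995) and *Src* (0.992). *Car13* and *Car2*, the 2 members nearest to *Car3* on the chromosome, were not the 2 genes named for it. With 266 genes above 0.9, that does not tell whether they followed *Car3*. With 6 hearts and so many genes, correlations of this size are found for every member, between 43 and 266 of them above 0.9.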

How the data were processed

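RNA from 6 female mouse hearts was sequenced as paired reads on an Illumina HiSeq. Per the labels, the submitters' processing notes name Trimmomatic 0.36, STAR 2.5.2b, featureCounts, Subread 1.5.2, DESeq2 and GRCm38; the annotation, the strand setting and the treatment of multimapped reads are not given in the sources used here. The deposited signal is the authors' read count per gene divided by 1 size factor per library, not scaled to length. Dividing by the value of 1 read gave whole reads for 100% of values within 0.001 reads, and the divisors equalled DESeq2 size factors. No gene in the table had a mean under 9.89. Identical read counts were found for 0.887% to 1.40% of genes in any pair of libraries. Depth limits *Car5b* and *Car13* most, and counting error covers neither preparation nor biology.

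Genotypes, taken from the sample labels, were tested two-sided in limma 3.58.1 under R 4.3.3, with the variance modelled as a trend, after adding 1 and taking log2, a scale that understates changes of low genes. The 16016 genes whose mean reached 10 entered, and p-values were Benjamini-Hochberg adjusted and called under 0.05. edgeR 4.0.16 (quasi-likelihood) and DESeq2 1.42.0 ran on recovered reads. Single genes and correlations over hearts used exact two-sided permutation tests (scipy 1.17.1). Scripts were tested on simulated data. Positions, lengths and 15985 of 16018 symbols came from GENCODE M21. Named were all members, and listed genes that any test called with *Slc4a4*, *Slc4a7*, *Car1*, *Itpr1*, *Pcx* and *Aqp1*. So were the 2 most abundant markers of the adipocyte and erythroid lists, and the 2 genes most like each member. *Adipoq*, *Ucp1*, *Lep*, *Aph1a*, *Itpr2*, *Itpr3* and *Car7*, *Car9* and *Car15* were named after their values were seen. One gene under this rule is not reported here. The members and lists were chosen with earlier results of these data known. Alternatives were other pseudocounts, filters and scalings, no trend, sample weights, a replicate block, length and GC correction, and leaving out each library; the correction together with the block was added after seeing the data.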

Additional observations from a re-analysis of the deposited data

How the results depend on the processing

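Under 20 alternatives for each of the 7 genes, none passed the threshold in any of the 140 values, the lowest adjusted p being 0.174. DESeq2 with its filtering gave *Car5b* and *Car13* no adjusted p, so these values could not pass. Of the 140 values, 123 kept the direction while 17 did not. *Car8* kept it throughout, from -0.21 to -0.0842. Leaving out 1 library at a time gave log2 fold changes from -0.18 to 0.11 for *Car2*, -1.76 to 0.0121 for *Car3*, -0.14 to 0.0159 for *Car4*, -0.35 to 0.16 for *Car5b*, -0.59 to 0.0079 for *Car13* and -0.0175 to 0.11 for *Car14*. Length and GC correction gave 0.0565 for *Car2* and 0.0909 for *Car4*, with the replicate block or without it. *Car5b* was at 0.0164 after quantile normalization and at 0.0188 with sample quality weights, and *Car14* at -0.0279 after rescaling to the same total and at -0.0092 after quantile normalization. *Car3*, at -1.13 by limma, was at -0.66 by edgeR, -0.67 by DESeq2 and -0.56 with sample quality weights. The cause was not tested. Rescaling to the same total moved the median of all genes to -0.08.

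Over all genes, limma called 0, with 3764 at an unadjusted p under 0.05, and edgeR called 0, with 3838. DESeq2 called 1587, 985 higher and 602 lower, and 1404 without its filtering and outlier handling; of the 48 pathway genes it called 6. Leaving out 1 library gave 0 to 3 calls, the 3 without the library labelled KO replicate 2. The labels do not say whether replicate numbers pair the hearts. The deviations of same-numbered hearts correlated at 0.23, 0.07 and -0.03, against -0.18 to 0.15 for the other pairs. The fit with the replicate block called 0 genes, as did the main fit, with 3924 at an unadjusted p under 0.05. For *Car3* it gave a standard error of 0.44 against 0.85, and an adjusted p of 0.174 against 0.458 (limma). Whether the hearts are paired was not settled by these values. With 3 hearts a group and *Car3* as variable as seen here, its 95% interval allows from 0.12 to 1.74 times the WT level.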
